A study of Homo sapiens with 6 samples.

Results

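snoRNA host genes were taken as all genes of the deposited count table whose symbol is SNHG followed by a number, together with GAS5, ZFAS1, EPB41L4A-AS1 and DANCR, which host snoRNAs under other symbols. This gave 32 of the 38167 genes in the table. They were followed in spheroids of Cal27, an established human cell line from a squamous carcinoma of the tongue, harvested on day 14 from soft Matrigel at 3 mg/mL or stiff Matrigel at 12 mg/mL. Each condition had 3 libraries of polyadenylated RNA, called biological replicates in the labels. Nothing in the labels says that the replicates were separate cultures, and a p-value here weighs a difference against library-to-library spread alone. Matrigel is a basement membrane extract, and a higher concentration brings more adhesive protein as well as a stiffer gel, so stiffness and matrix dose cannot be told apart in this design. Cal27 is a single line, and the labels name no agent other than Matrigel for either group.

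Small nucleolar RNAs (snoRNAs) are cut from the introns of longer host transcripts after splicing. C/D box snoRNAs guide ribose methylation of ribosomal RNA, H/ACA box snoRNAs guide its pseudouridylation, and Cajal body RNAs act on spliceosomal RNAs. The spliced remainder of these hosts mostly codes for no protein, often begins with a tract of pyrimidines of the kind found on ribosomal protein mRNAs (a terminal oligopyrimidine, or TOP, start), and in several cases is degraded by nonsense-mediated decay, the pathway that removes transcripts with early stop codons.

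By RefSeq positions on GRCh38.p14, the 32 genes lay on 15 chromosomes, and 30 of them held at least 1 annotated snoRNA, 147 in all. SNHG14, the host of the SNORD115 and SNORD116 clusters of the imprinted Prader-Willi region, held 83 of these, and the other hosts held 64. Of the 147, 121 were C/D box, 22 were H/ACA box and 4 were Cajal body RNAs. GAS5 held 11, SNHG1 held 8, and SNHG12 and SNHG17 held 4 each, whereas 16 hosts held exactly 1. No annotated snoRNA lay inside SNHG27 or SNHG28.

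The sequences at the annotated starts are shown for 8 hosts, chosen to place hosts that rose beside well-known hosts that did not pass the test. Each runs 5′ to 3′ on the strand of the gene, with 20 bases before the annotated start and 30 bases from it, from the RefSeq table of GRCh38.p14. Capitals mark the unbroken run of pyrimidines that opens the transcript, where its first base is C.
SNHG7: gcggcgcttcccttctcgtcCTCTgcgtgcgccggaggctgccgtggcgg
SNHG32: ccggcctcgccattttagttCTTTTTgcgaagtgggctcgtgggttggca
SNHG12: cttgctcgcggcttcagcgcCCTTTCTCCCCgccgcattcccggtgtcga
SNHG19: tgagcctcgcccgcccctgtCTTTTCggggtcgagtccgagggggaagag
SNHG1: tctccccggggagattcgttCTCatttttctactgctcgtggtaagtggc
SNHG5: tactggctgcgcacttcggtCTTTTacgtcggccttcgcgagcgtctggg
ZFAS1: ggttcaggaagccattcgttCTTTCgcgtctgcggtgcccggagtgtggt
GAS5: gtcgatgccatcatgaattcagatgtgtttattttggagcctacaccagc

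These windows lie at chr9:136728155-136728204 (SNHG7, minus strand), chr6:31834896-31834945 (SNHG32, plus), chr1:28581844-28581893 (SNHG12, minus), chr16:2155329-2155378 (SNHG19, minus), chr11:62855856-62855905 (SNHG1, minus), chr6:85678704-85678753 (SNHG5, minus), chr20:49278622-49278671 (ZFAS1, plus) and chr1:173869016-173869065 (GAS5, minus). The windows of SNHG12 and ZFAS1 lie inside the RefSeq bounds of these genes (chr1:28578538-28582983 and chr20:49278178-49289260). Their starts are therefore not the outermost annotated ones. A run of at least 5 pyrimidines opening with C was counted as a TOP start. By this count SNHG12 had 11 pyrimidines, SNHG32 and SNHG19 had 6 each, and SNHG5 and ZFAS1 had 5 each, whereas SNHG7 had 4, SNHG1 had 3 and GAS5 opened with a purine. SNHG18 (21 pyrimidines) and SNHG4 (13) also had a TOP start. In all, 7 of the 28 hosts with a window (25.0%) had one, against 4.07% of all 35116 promoter windows in the table. The start chosen by the annotation matters here. In GENCODE release 29, 15 of the 30 tested hosts had at least 1 transcript with a TOP start, against 15.9% of 16379 tested genes. The mean number of transcripts was 9.73 per host and 8.2 per gene. A TOP start was found on 6 of the 29 GAS5 transcripts and on 0 of the 11 SNHG32 transcripts. SNHG6, which had no RefSeq window, had one on 3 of its 5 transcripts. Among the 7 hosts with a TOP start in the RefSeq window, 4 rose in stiff Matrigel and 3 did not pass the test described next. Among the 21 without one, 7 rose, 1 fell, 11 did not pass and 2 were not tested.

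Library totals ran from 30656278 to 40583044 counts. Levels are given as CPM, the usual unit of counts relative to library size, here scaled with edgeR's TMM factors, and differences as log2 fold changes of stiff over soft, with the standard error (SE) from edgeR's quasi-likelihood test and p-values adjusted with Benjamini-Hochberg over all 18676 genes tested. Genes with an adjusted p below 0.05 are said to rise or fall. The stiff libraries were not alike: on the second principal component of all tested genes stiff replicate 2 stood at -34.96, and stiff replicates 1 and 3 at 21.46 and 18.27. The split fell along these genes too, so results are given with and without that library. In these bulk libraries fewer cells of a type and less RNA per cell cannot be told apart. Of 8 squamous epithelial markers 5 rose and 2 fell, with a summed level of 5860 to 6520 CPM in soft and 18100 to 19100 CPM in stiff libraries, led by the basal keratin KRT5 at 1970 and 6486 CPM. Of 6 fibroblast genes 4 were tested and 2 rose (summed 72.9 to 80.4 CPM in soft and 99.3 to 106 in stiff). The list was led by COL1A1 at 71.8 and 82.6 CPM, whose call was lost in 11 of the 16 alternative settings. The other that rose was LUM, from 2.31 to 17.3 CPM (log2 fold change 2.92, adjusted p = 6.15e-06, edgeR), while DCN was below 0.4 CPM in each library. Of 4 endothelial genes 2 were tested and 1 rose (1.74 to 2.05 and 3.2 to 4.1 CPM, led by VWF at 1.58 and 3.23), with KDR at 0 in the stiff libraries. Of 5 leukocyte genes 2 were tested and 1 rose (53.7 to 59.1 and 98.5 to 105 CPM, led by CD68, a lysosomal protein, at 55.8 and 100.7), with MS4A1 at 0 and PTPRC at 0 to 3 counts. The part of these shifts in the results for the hosts was not tested.

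snoRNA host transcripts changed more often upward than downward in stiff Matrigel. Of 30 hosts tested, 12 rose (40.0%) and 1 fell (3.33%), against 25.3% of all tested genes that rose and 23.8% that fell. Calls in either direction numbered 13 (43.3%), below the 49.1% among all genes. The median log2 fold change of the hosts was 0.19, with 19 of 30 above 0, and that of all tested genes was 0.00 (-0.0002). SNHG27, with 0 counts in each library, and SNHG31, with 2 to 22 counts, were not tested. The values of the 2 groups did not overlap in 15 of the 30 hosts, 13 higher and 2 lower in stiff, against 59.9% of all tested genes (30.3% higher and 29.6% lower).

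The number of falls depended on stiff replicate 2, whereas the rises remained without it. Leaving that library out, the same 12 hosts rose (40.0%) and 7 fell (23.3%), 19 in all, against 28.2%, 27.4% and 55.7% of the 19053 genes then tested. The share of hosts that fell thus lay far below that of all genes with the library and near it without. The hosts that then passed as lower were SNHG22, which fell in both analyses, and GAS5, SNHG5, SNHG11, SNHG15, SNHG17 and SNHG20. Stiff replicate 2 was the highest of the 3 stiff libraries in 27 of the 30 tested hosts (90.0%), against 41.9% of all genes, and the highest of all 6 libraries in 21 (70.0%), against 28.1%. Its median host level was 1.28-fold the mean of stiff replicates 1 and 3. All hosts together made up 0.1242%, 0.1404% and 0.1336% of the counts in soft replicates 1 to 3, and 0.1511%, 0.1886% and 0.1483% in stiff replicates 1 to 3. Leaving out soft replicate 1 instead left 8 rises (26.7%) and 1 fall (3.33%), against 19.7% and 17.9% of all genes, or 37.6% in either direction.

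**Figure D1:**
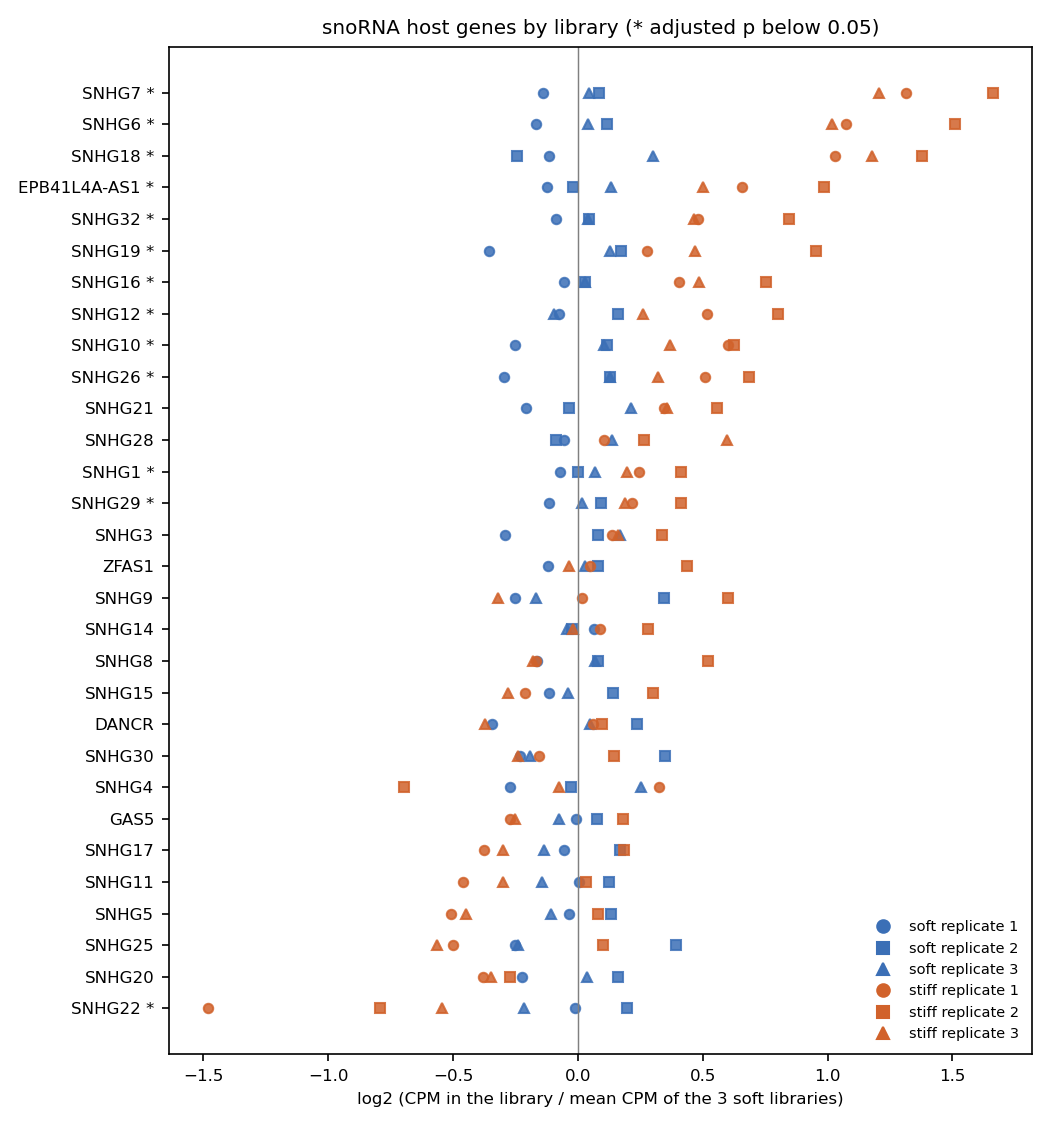
Each point is the level of 1 snoRNA host gene in 1 library, as log2 of its CPM over the mean CPM of the 3 soft libraries, with hosts ordered by their log2 fold change and colours for soft (blue) and stiff (orange). Asterisks mark the 13 hosts with an adjusted p below 0.05, and the orange squares of stiff replicate 2 lie rightmost among the stiff points in 27 of 30 hosts.

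SNHG7 and SNHG6 rose most among the hosts with a mean of at least 5 CPM. SNHG7, which carries the H/ACA RNAs SNORA17A and SNORA17B in its introns on chromosome 9, stood at 50.9, 59.4 and 57.8 CPM in soft replicates 1 to 3 and at 139, 177 and 129 CPM in stiff replicates 1 to 3. All stiff libraries exceeded all soft libraries, with means of 56.0 ± 4.51 and 149 ± 25.3 CPM (SD, n = 3 each) and a log2 fold change of 1.41 (SE 0.12, 2.65-fold, adjusted p = 8e-06 in edgeR's quasi-likelihood test). SNHG6, the host of SNORD87, stood at 28.8, 35.1 and 33.2 CPM in soft and at 68.1, 92.3 and 65.5 CPM in stiff libraries. Again the groups were separate, with means of 32.4 ± 3.24 and 75.3 ± 14.8 CPM (SD, n = 3 each) and a log2 fold change of 1.22 (SE 0.13, 2.33-fold, adjusted p = 5.1e-05, edgeR). Both were higher in stiff by more than the spread between libraries, and both rises remained without stiff replicate 2, at log2 fold changes of 1.26 and 1.05. Both hosts share exon sequence with a coding gene on the opposite strand: DIPK1B covers 25.2% of the exon bases of SNHG7, and MCMDC2 covers 29.3% of those of SNHG6. DIPK1B was counted at 7.37 ± 0.60 CPM in soft and 16.4 ± 4.58 in stiff (SD, n = 3 each, log2 fold change 1.16, adjusted p = 0.000471, edgeR), and MCMDC2 at 14.8 ± 0.42 and 29.9 ± 6.01 CPM (1.02, adjusted p = 0.000147). Each partner was lower than its host and moved the same way. Whether the counts separated the strands is not stated. The antisense gene TALAM1 had 92.7% to 94.3% of the counts of its sense partner MALAT1 in each library, although the libraries were prepared with a directional kit, so a host and a partner on the other strand cannot be told apart.

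EPB41L4A-AS1, the host of the H/ACA RNA SNORA13, and SNHG32, the host of SNORD48 and SNORD52, formed the next step. EPB41L4A-AS1 stood at 22.9, 24.6 and 27.4 CPM in soft and at 39.3, 49.4 and 35.3 CPM in stiff libraries. With no overlap between groups its means were 24.9 ± 2.27 and 41.3 ± 7.25 CPM (SD, n = 3 each), a log2 fold change of 0.73 (SE 0.12, 1.66-fold, adjusted p = 0.000882, edgeR). EPB41L4A, which covers 49.6% of the exon bases of this host from the other strand, moved the opposite way, from 24.1 ± 0.62 to 13.4 ± 1.35 CPM (SD, n = 3 each, log2 fold change -0.85, adjusted p = 6e-05, edgeR). SNHG32 stood at 98.7, 108 and 108 CPM in soft and at 146, 189 and 145 CPM in stiff libraries, without overlap. Its means were 105 ± 5.44 and 160.1 ± 24.8 CPM (SD, n = 3 each), a log2 fold change of 0.61 (SE 0.10, 1.52-fold, adjusted p = 0.00087, edgeR). A gene with no symbol in the table covers 23.2% of the exon bases of SNHG32 on the same strand, so its counts are uncertain to that extent.

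SNHG16, the host of SNORD1A, SNORD1B and SNORD1C, stood at 56.2, 59.6 and 59.6 CPM in soft and at 77.4, 98.7 and 82.0 CPM in stiff libraries. The soft libraries lay within 4 CPM of each other and all stiff libraries lay above them, giving means of 58.5 ± 1.98 and 86.0 ± 11.2 CPM (SD, n = 3 each) and a log2 fold change of 0.56 (SE 0.09, 1.47-fold, adjusted p = 0.000813, edgeR). A partner with no symbol covers 30.6% of its exon bases from the other strand. SNHG12, which carries 3 H/ACA RNAs and the C/D RNA SNORD99, stood at 20.6, 24.2 and 20.3 CPM in soft and at 31.1, 37.9 and 26.0 CPM in stiff libraries. The lowest stiff library was above the highest soft library by less than 2 CPM, and the log2 fold change was 0.54 (SE 0.13, 1.46-fold, adjusted p = 0.0071, edgeR). SNHG10, the host of the Cajal body RNA SCARNA13, stood at 5.18, 6.68 and 6.62 CPM in soft and at 9.34, 9.50 and 7.96 CPM in stiff libraries. Its groups were separate and its log2 fold change was 0.54 (SE 0.14, 1.45-fold, adjusted p = 0.00819, edgeR). Here stiff replicates 1 and 2 lay close together.

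The other hosts over 5 CPM that rose changed less or depended on 1 library. SNHG19, the host of SNORD60, stood at 6.19, 8.91 and 8.65 CPM in soft and at 9.60, 15.3 and 11.0 CPM in stiff libraries (log2 fold change 0.60, SE 0.19, 1.52-fold, adjusted p = 0.0245, edgeR). SNHG26, the host of SNORD93, stood at 4.28, 5.75 and 5.76 CPM in soft and at 7.48, 8.47 and 6.57 CPM in stiff libraries (0.52, SE 0.15, 1.43-fold, adjusted p = 0.0183, edgeR). In both, soft replicate 1 was the lowest library and the groups did not overlap. SNHG1, the host of a run of C/D RNAs from SNORD25 to SNORD31 with SNORD22, stood at 71.5, 75.0 and 78.7 CPM in soft and at 88.8, 99.9 and 86.0 CPM in stiff libraries (0.29, SE 0.08, 1.22-fold, adjusted p = 0.0119, edgeR). SNHG29, the host of SNORD49A, SNORD49B and SNORD65, stood at 334.8, 386 and 366 CPM in soft and at 421, 483 and 413 CPM in stiff libraries (0.28, SE 0.08, 1.21-fold, adjusted p = 0.0193, edgeR). SNHG1 and SNHG29 were thus higher in each stiff library by a narrow margin. Without soft replicate 1 the rises of SNHG1, SNHG19, SNHG26 and SNHG29 no longer passed, and that of SNHG29 also ended without soft replicate 3. LRRC75A, which covers 12.0% of the exon bases of SNHG29 from the other strand, went from 137 ± 13.8 to 169.7 ± 26.8 CPM (SD, n = 3 each, log2 fold change 0.31, adjusted p = 0.0453, edgeR), a call that was lost in 7 of the 16 alternative settings, among them without soft replicate 1 (adjusted p = 0.183), soft replicate 2 (0.0509) or soft replicate 3 (0.108).

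**Figure D2:**
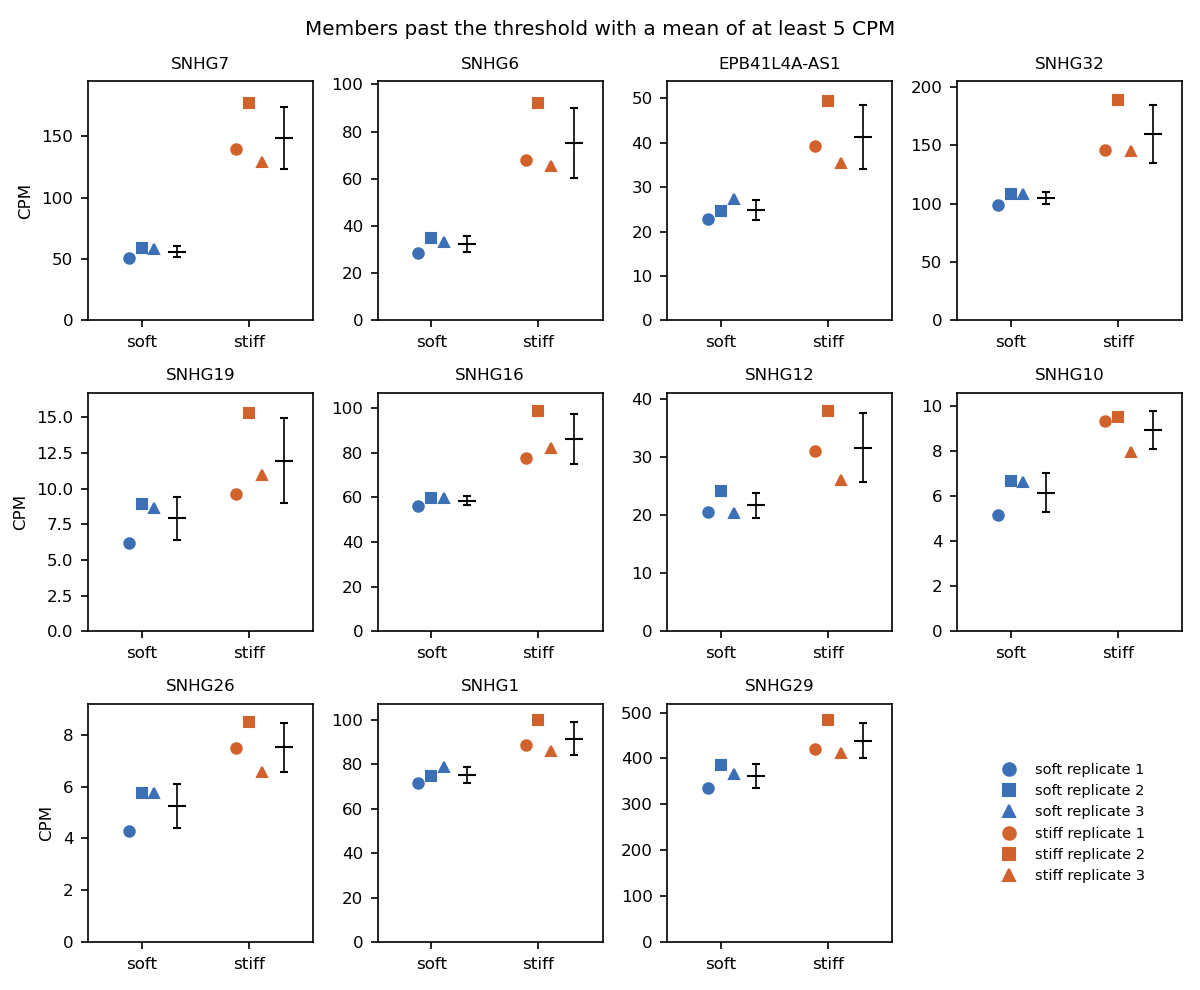
CPM in each library for the 11 hosts that rose with a mean of at least 5 CPM over the 6 libraries, from 0, with the mean and SD of 3 libraries in black beside the points of each group. No group pair overlaps, and the stiff SD of SNHG7 (25.3 CPM) and SNHG6 (14.8 CPM) exceeds the soft SD (4.51 and 3.24 CPM).

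Among the hosts under 5 CPM, SNHG18 rose and SNHG22 fell. SNHG18, the host of SNORD123, had 24, 18 and 24 counts in soft and 44, 58 and 51 counts in stiff libraries. Each stiff library had more counts than any soft library, and the log2 fold change was 1.21 (SE 0.26, 2.31-fold, adjusted p = 0.00311, edgeR). SNHG22, the host of SCARNA17, had 40, 38 and 26 counts in soft and 12, 20 and 24 counts in stiff libraries. Its groups were 2 counts apart before scaling, and its log2 fold change was -0.88 (SE 0.31, 1.84-fold lower, adjusted p = 0.0372, edgeR). That fall no longer passed when any of the soft libraries or stiff replicate 1 was left out (adjusted p up to 0.12 over these alternatives in edgeR's and DESeq2's tests), or in DESeq2. The remaining low hosts that were tested, SNHG9, SNHG21, SNHG25, SNHG28, SNHG30 and SNHG4, did not pass, with log2 fold changes between -0.29 and 0.43. Of these SNHG21, the host of SCARNA15, came closest (0.43, adjusted p = 0.0585, and 0.0439 without soft replicate 3, in edgeR's test), with 3.13 ± 0.42 TPM in soft and 3.87 ± 0.12 TPM in stiff (SD, n = 3 each).

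GAS5, SNHG5, ZFAS1 and DANCR did not pass in edgeR's test with all 6 libraries. GAS5, named for its accumulation in growth-arrested cells and the host of 10 C/D RNAs and 1 H/ACA RNA, stood at 101.6, 107.6 and 96.8 CPM in soft and at 84.4, 116 and 85.6 CPM in stiff libraries. Stiff replicates 1 and 3 lay below every soft library and stiff replicate 2 above every one, with a log2 fold change of -0.10 (SE 0.12, adjusted p = 0.503, edgeR). Without stiff replicate 2 it was -0.26 (adjusted p = 0.000647, edgeR). SNHG5, the host of SNORD50A and SNORD50B, also had stiff replicates 1 and 3 below every soft library and stiff replicate 2 level with them, at 68.7, 77.0 and 65.4 CPM in soft and 49.4, 74.3 and 51.5 CPM in stiff libraries. Its log2 fold change was -0.27 (SE 0.14, adjusted p = 0.144) with all libraries and -0.48 (adjusted p = 7.59e-06) without stiff replicate 2, in edgeR's test. With all 6 libraries it also passed as lower without a filter on low counts (-0.28, adjusted p = 0.0157) and with the replicate number as a block (-0.29, adjusted p = 0.00946). ZFAS1, the host of SNORD12, SNORD12B and SNORD12C, stood at 186, 214 and 207 CPM in soft and at 209, 274 and 198 CPM in stiff libraries. The groups overlapped, and the log2 fold change was 0.17 (SE 0.12, adjusted p = 0.263, edgeR) and 0.01 (adjusted p = 0.922) without stiff replicate 2. DANCR, the host of SNORA26 and known for restraining differentiation of epidermal cells, stood at 4.60, 6.89 and 6.05 CPM in soft and at 6.09, 6.25 and 4.52 CPM in stiff libraries. Its groups overlapped (log2 fold change -0.05, SE 0.18, adjusted p = 0.831, edgeR).

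**Figure D3:**
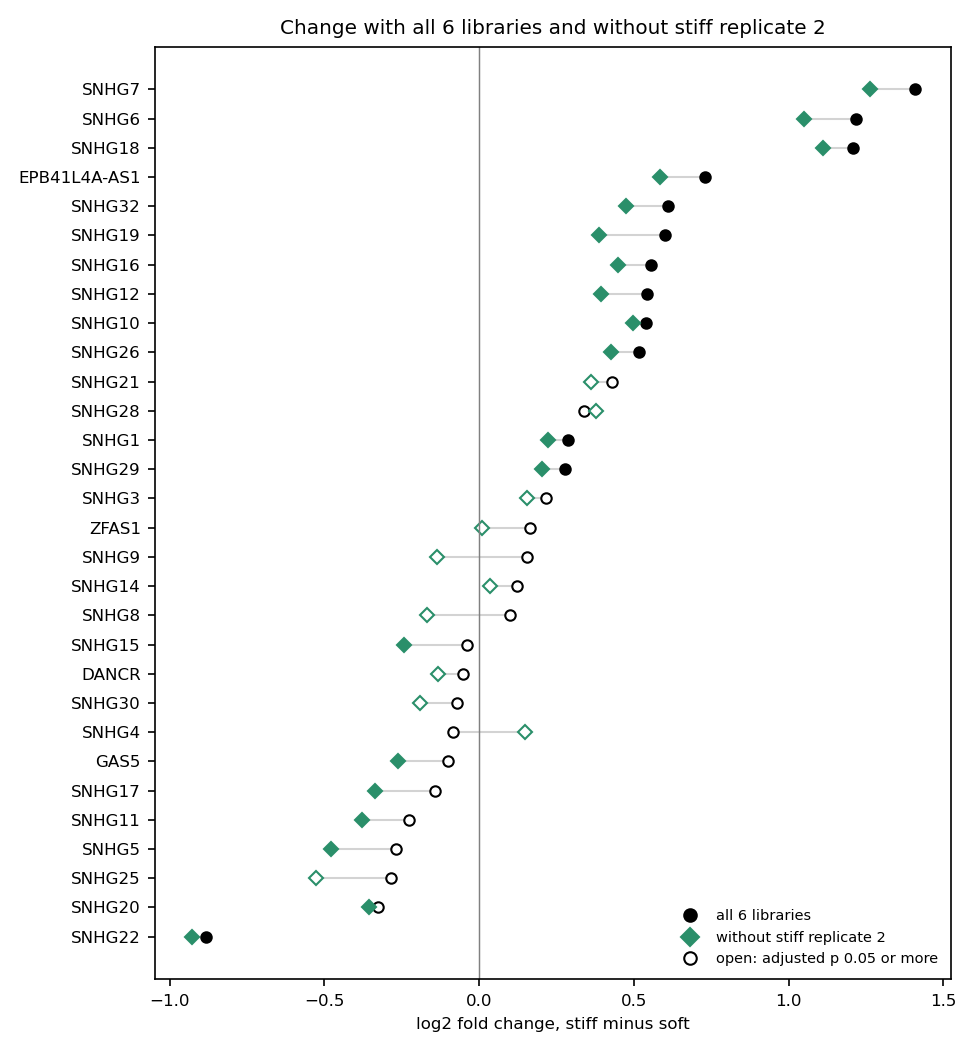
The log2 fold change of stiff over soft for the 30 tested hosts with all 6 libraries (black circles) and without stiff replicate 2 (green diamonds), filled where the adjusted p is below 0.05. All hosts but SNHG28 and SNHG4 move left without that library. The 12 filled points right of 0 stay filled, and the filled points left of 0 go from 1 to 7.

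The other hosts that passed as lower without stiff replicate 2 were SNHG11, SNHG15, SNHG17 and SNHG20. SNHG17, the host of 4 copies of SNORA71, had a log2 fold change of -0.14 (adjusted p = 0.452) with all libraries and -0.34 (adjusted p = 0.00648) without that library in edgeR's test. SNHG11, which lies beside SNHG17 on chromosome 20 and holds SNORA60 and SNORA71E, had -0.23 (adjusted p = 0.192) and -0.38 (adjusted p = 0.00585). SNHG15, the host of SNORA9, had -0.04 (adjusted p = 0.841) and -0.24 (adjusted p = 0.0209). SNHG20, the host of SCARNA16, was lower in each stiff library than in any soft library and nearly passed (-0.33, adjusted p = 0.0577), and it passed as lower in 7 of the 16 alternative settings: without stiff replicate 2 (-0.36, adjusted p = 0.0278), without soft replicate 1 (-0.43, adjusted p = 0.0303), with library size alone, with the replicate block and in each limma setting on TPM. SNHG3, SNHG8, SNHG14 and SNHG30 passed in neither analysis, with log2 fold changes of 0.22, 0.10, 0.12 and -0.07 with all libraries.

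Deposited TPM divides counts by a length for each gene, and that length did not follow the exon bases of GENCODE 29. In soft libraries SNHG29 had 362.4 CPM and 50.77 TPM with 3759 exon bases. SNHG5 had 70.35 CPM and 596.6 TPM with 2806 exon bases. The places of hosts given here are those of the deposited TPM and may not be those of their transcript levels. SNHG5 was the highest host in both groups, at 605, 635.2 and 549.6 TPM in soft and 400.5, 546.2 and 418.3 TPM in stiff libraries. ZFAS1 followed in both, at 215.5 ± 8.06 and 222.7 ± 27.1 TPM (SD, n = 3 each). Both stood clear of all other hosts in every library. The next places changed between the groups. In soft libraries SNHG19 (94.4 ± 15.2 TPM), EPB41L4A-AS1 (88.9 ± 6.82), SNHG32 (70.4 ± 1.56) and SNHG8 (65.9 ± 4.14) followed. Of these SNHG19 and EPB41L4A-AS1 overlapped, whereas SNHG32 (68.8 to 71.9 TPM) lay below every value of both and just above the 61.1 to 68.6 TPM of SNHG8. SNHG7 ranked 7 there at 59.7 ± 2.84 TPM and SNHG6 ranked 9 at 52.0 ± 3.47 TPM. In stiff libraries SNHG7 ranked 3 at 146 ± 16.2 TPM, ahead of EPB41L4A-AS1 (135.8 ± 16.1), SNHG19 (131.4 ± 25.1) and SNHG6 (111.4 ± 15.1). There SNHG7, EPB41L4A-AS1 and SNHG19 overlapped, whereas each SNHG7 value lay above every SNHG6 value. SNHG14 (5.1 TPM in both groups), SNHG17, SNHG21, SNHG18, SNHG22 and SNHG28 made up the low end, with SNHG31 at 0.1 to 1.0 TPM. The summed TPM of all hosts was 1639.3, 1800.2 and 1668.7 in soft and 1695.6, 2090.9 and 1676.1 in stiff libraries, so stiff replicates 1 and 3 lay inside the soft range and stiff replicate 2 above it.

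**Figure D4:**
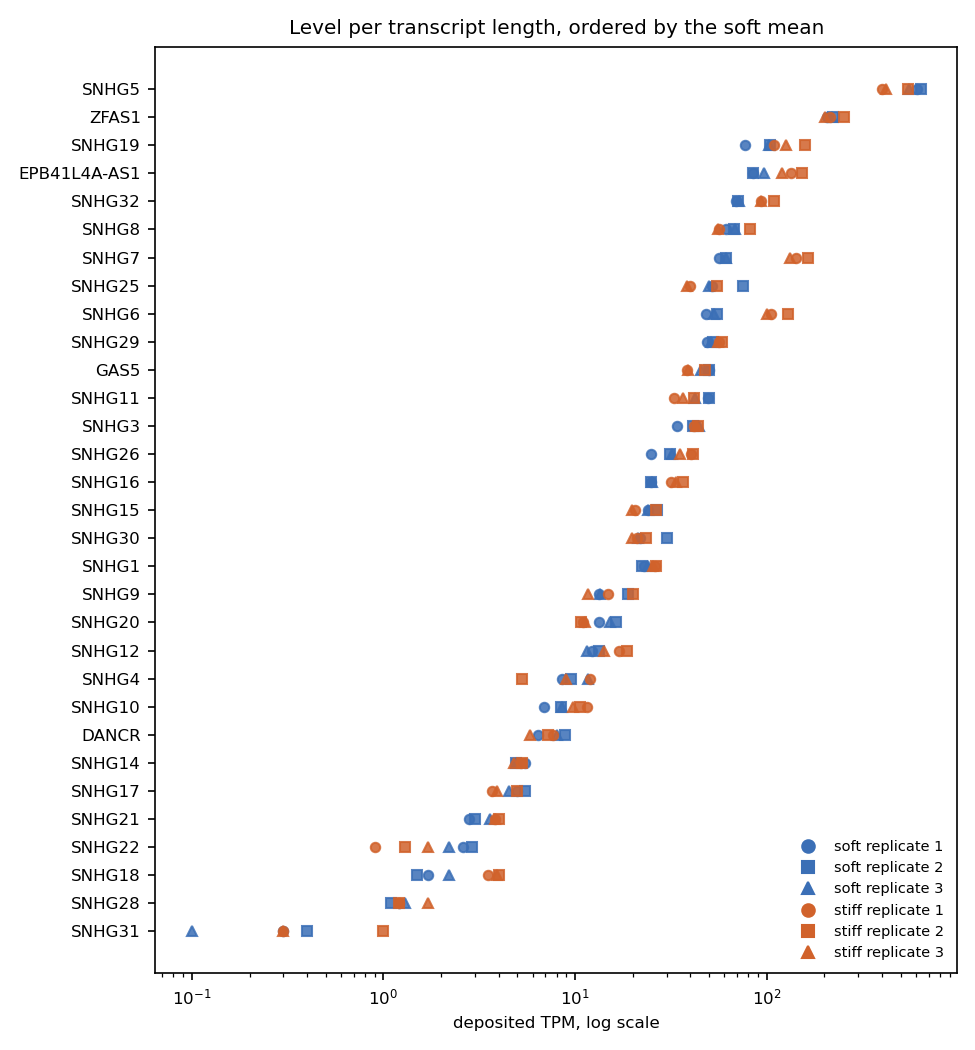
Deposited TPM of 31 hosts in each library on a log axis, ordered by the soft mean (SNHG27 is listed at 0 and not drawn). SNHG5 and ZFAS1 lead in each library, and the stiff points of SNHG7 and SNHG6 stand apart from their soft points. The order between hosts depends on the length assigned to each gene in the TPM.

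Several hosts start close to a coding gene transcribed the other way, and these neighbours moved in both directions. Of 9 coding genes that start within 2000 bases of a host on the opposite strand, 4 did not pass, 3 rose and 2 fell. Among all tested genes 25.3% rose and 23.8% fell, and a difference from these shares was not tested. SLC3A2, the heavy chain of amino acid transporters, starts 188 bases from SNHG1 in GENCODE and stood at 683.6, 755 and 653 CPM in soft and 297.5, 342.6 and 296 CPM in stiff libraries. It fell in each stiff library while SNHG1 rose (log2 fold change -1.16, SE 0.08, 2.23-fold lower, adjusted p = 3.57e-06, edgeR). ZNFX1, a helicase of the antiviral response that starts 248 bases from ZFAS1 and covers 11.1% of its exon bases, stood at 276, 256 and 273.5 CPM in soft and 146.5, 107 and 150.6 CPM in stiff libraries. It fell (-0.996, SE 0.12, 1.99-fold lower, adjusted p = 7.99e-05, edgeR), and its lowest value was in stiff replicate 2, the library with the highest ZFAS1. RPS2, a small-subunit ribosomal protein that starts 99 bases from SNHG9, rose from 483 ± 33.6 to 666 ± 79.7 CPM (SD, n = 3 each, log2 fold change 0.46, adjusted p = 0.00238, edgeR), while SNHG9 with 23 to 45 counts per library did not pass (0.16, adjusted p = 0.706). TRAF7, a ubiquitin ligase beside SNHG19, rose from 223 ± 3.63 to 261 ± 5.99 CPM (SD, n = 3 each, 0.23, adjusted p = 0.0113, edgeR), a call that ended without soft replicate 2 or soft replicate 3 (adjusted p = 0.0606 and 0.051) and in the limma settings on TPM (log2 fold change 0.11, adjusted p = 0.297 to 0.332). BARD1, the partner of BRCA1, rose (0.45, adjusted p = 0.00498, edgeR) beside SNHG31, which was too low to test. ZBTB37 beside GAS5 (-0.18, adjusted p = 0.212), GLRX5 beside SNHG10 (0.09, adjusted p = 0.52), SEMA5A beside SNHG18 (0.67, adjusted p = 0.228) and ACAA2 beside SNHG22 (0.24, adjusted p = 0.592) did not pass. GLRX5 covers 20.1% of the exon bases of SNHG10. Among the other hosts that did not pass, exon bases were shared at 10% or more by SNHG4 (14.0% with MATR3 on the same strand), SNHG21 (34.1% with FSD2 and 72.9% with a gene without a symbol), SNHG28 (37.6% with SLAMF8 and 12.0% with VSIG8) and DANCR (11.9% with a gene without a symbol), so their counts are uncertain too.

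**Figure D5:**
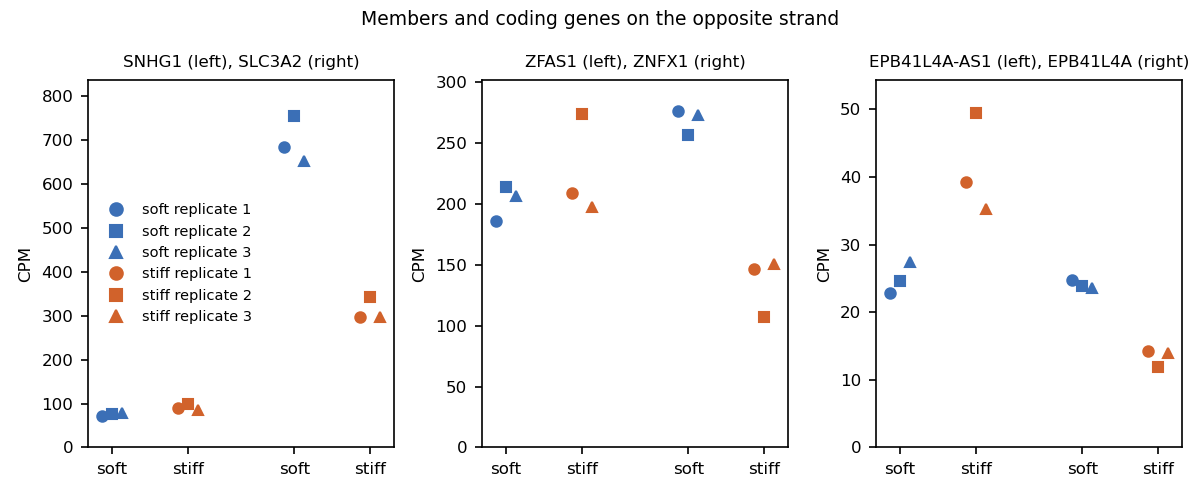
CPM in each library, from 0, for SNHG1, ZFAS1 and EPB41L4A-AS1 (left in each panel) and for the coding genes on the opposite strand, SLC3A2, ZNFX1 and EPB41L4A (right in each panel). Each coding gene is lower in all 3 stiff libraries than in any soft library, whereas SNHG1 and EPB41L4A-AS1 are higher and ZFAS1 overlaps between groups. Only pairs whose coding gene fell are drawn. DIPK1B, MCMDC2, LRRC75A and TRAF7, which rose as did their hosts SNHG7, SNHG6, SNHG29 and SNHG19, are not drawn.

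The snoRNAs inside these hosts also have entries in the table, but mature snoRNAs carry no poly(A) tail, so a library of polyadenylated RNA does not measure them. Of 147 such entries 69 were at 0 in all libraries and 41 passed the count filter. Of these 41, 4 rose and 2 fell (14.6%), against 15.6% of all 141 snoRNA entries tested and 16.0% of the 100 outside these hosts. Their median log2 fold change was 0.10. Without soft replicate 1, 2 rose and 0 fell in edgeR's test, where 2 were lower at an unadjusted p below 0.05. The annotated sequences of 3 of the 6 are shown, 1 from each of SNHG7, SNHG1 and ZFAS1, from GENCODE release 29 transcripts on GRCh38. Whether the counted fragments stay within these sequences was not tested. Capitals mark the C box and D box of SNORD12, the ACA box of SNORA17A and the D box of SNORD22.
SNORA17A: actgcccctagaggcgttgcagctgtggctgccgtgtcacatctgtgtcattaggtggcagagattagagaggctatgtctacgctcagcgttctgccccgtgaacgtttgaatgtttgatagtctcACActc
SNORD22: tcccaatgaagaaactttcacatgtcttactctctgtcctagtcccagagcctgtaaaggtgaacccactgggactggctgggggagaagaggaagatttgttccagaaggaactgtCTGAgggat
SNORD12: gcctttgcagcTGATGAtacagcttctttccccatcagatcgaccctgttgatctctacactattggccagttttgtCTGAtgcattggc

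They lie at chr9:136726747-136726879 (SNORA17A, minus strand), chr11:62852910-62853035 (SNORD22, minus) and chr20:49280683-49280772 (SNORD12, plus). SNORD22 had 136, 113 and 125 counts in soft and 193, 249 and 236 counts in stiff libraries. It rose without overlap between groups (log2 fold change 0.85, SE 0.15, adjusted p = 0.00092, edgeR). Its host SNHG1 rose by 0.29, and the difference between them was not tested. SCARNA13 in SNHG10 had 31, 28 and 21 counts in soft and 52, 68 and 44 in stiff libraries (1.04, SE 0.25, adjusted p = 0.00681, edgeR). Both H/ACA RNAs of SNHG7 rose with it, SNORA17A (0.80, adjusted p = 0.0265) and SNORA17B (0.92, adjusted p = 0.0216), in edgeR's test. The call of SNORA17A ended without soft replicate 1, 2 or 3 or stiff replicate 2, and that of SNORA17B without soft replicate 1 or stiff replicate 3. SNORD12 in ZFAS1 had 25, 20 and 18 counts in soft and 10, 1 and 7 in stiff libraries and fell (-1.78, SE 0.51, adjusted p = 0.0156, edgeR), lowest in the library with the highest ZFAS1. That call ended without soft replicate 1 (adjusted p = 0.0514, edgeR). It also ended in limma on log2(TPM + 0.1) (adjusted p = 0.0734) and, without a filter, on log2(TPM + 1) (adjusted p = 0.0882). SNORD81 in GAS5 fell (-0.70, adjusted p = 0.0432, edgeR). Its call ended when any library other than stiff replicate 2 was left out, and in DESeq2 (adjusted p = 0.0752).

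Genes for proteins that bind and mature snoRNAs mostly fell or did not pass. Of 8 core proteins of the C/D and H/ACA particles, 4 fell, 0 rose and 4 did not pass in edgeR's test (median log2 fold change -0.22). With 0 rises also in DESeq2 and limma, 1 of the 8 was higher at an unadjusted p below 0.05 in edgeR. NOP56, which holds the C/D particle together, fell from 95.4 ± 5.96 to 57.7 ± 3.73 CPM (SD, n = 3 each, 1.65-fold lower, adjusted p = 4.6e-05, edgeR). DKC1, the pseudouridine synthase dyskerin, fell from 71.9 ± 3.26 to 46.1 ± 2.78 CPM (SD, n = 3 each, 1.56-fold lower, adjusted p = 7.76e-05, edgeR). Of 18 assembly and processing factors, 10 fell (55.6%), 1 rose (5.56%) and 7 did not pass (median -0.28), against 23.8% and 25.3% of all genes. NOLC1, a nucleolar and Cajal body chaperone of snoRNPs, fell 1.904-fold (adjusted p = 8.52e-06), and RUVBL1, an ATPase of the assembly machinery, fell 1.69-fold (adjusted p = 1.16e-05, edgeR). ZNHIT3 was the 1 factor that rose (1.247-fold, adjusted p = 0.0148, edgeR), a call that ended without soft replicate 1 (adjusted p = 0.0741) or soft replicate 3 (0.059). Without stiff replicate 2, 6 core proteins and 11 assembly factors fell and 0 and 1 rose. A core protein rose without stiff replicate 1 and also without stiff replicate 3 (1 of 8 each time).

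Genes of ribosomal RNA synthesis fell more often than they rose. Of 28 factors of RNA polymerase I and the nucleolus, 18 fell, 2 rose and 8 did not pass (median -0.34), against 23.8% and 25.3% of all genes. POLR1B, the second-largest subunit of the polymerase, fell 1.78-fold (adjusted p = 2.37e-05), and RRN3, which brings it to promoters, fell 1.601-fold (adjusted p = 3.21e-05, edgeR). POLR1D, a subunit shared with polymerase III, rose 1.61-fold (adjusted p = 0.000162, edgeR). The other that rose was TAF1D, a subunit of the promoter factor SL1 that also hosts snoRNAs, from 129.3 ± 8.68 to 238.8 ± 19.2 CPM (SD, n = 3 each, 1.85-fold, adjusted p = 1.61e-05, edgeR).

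Protein-coding hosts of snoRNAs moved in both directions. Of 53 such genes, 28 rose (52.8%), 14 fell (26.4%) and 11 did not pass (median 0.26). The lists overlap: NOP56, NOP58 and DKC1, which fell, are also counted among the core snoRNP proteins. NCL, which fell, and TAF1D are also counted among the polymerase I and nucleolar factors. The share that fell was near the 23.8% of all genes, and the share that rose was above the 25.3% of all genes. EIF4A2, a translation initiation helicase, rose with TAF1D (1.58-fold, adjusted p = 7.11e-05, edgeR). HSPA8 and HSPA9, the cytosolic and mitochondrial chaperones of the heat shock 70 family, fell 2.38-fold (adjusted p = 8.88e-07) and 2.12-fold (adjusted p = 1.25e-06, edgeR). Split by symbol after their values were seen, 22 of the 25 ribosomal protein genes rose and 0 fell in edgeR's test (median 0.43, and 0 lower at an unadjusted p below 0.05, in DESeq2 or in limma), whereas 6 of the other 28 rose and 14 fell (median -0.20). In the RefSeq promoter windows, 18 of the 40 coding hosts with a window had a TOP start. As with the non-coding hosts, stiff replicate 2 was the highest stiff library in 41 of the 53 (77.4%). That share was 7 of 8 for the core snoRNP proteins and 13 of 28 (46.4%) for the polymerase I and nucleolar factors.

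Nonsense-mediated decay limits the spliced form of several hosts. Of 20 of its factors, 7 fell (35.0%), 1 rose (5.0%) and 12 did not pass (median -0.16), against 23.8% and 25.3% of all genes. In either direction 40.0% were called, against 49.1% of all genes. The count of falls was 3 without soft replicate 1, 4 without soft replicate 3 and 11 without stiff replicate 2, and that of rises 2 without stiff replicate 2. RBM8A, a subunit of the exon junction complex, fell 1.55-fold (adjusted p = 0.000109), GSPT1, the release factor eRF3a, fell 1.23-fold (adjusted p = 0.00392), and SMG9, a regulator of the SMG1 kinase, rose 1.35-fold (adjusted p = 0.00163, edgeR). The central helicase UPF1 did not pass (142 ± 7.61 CPM in the soft group, 143 ± 13.9 CPM in the stiff group, SD, n = 3 each), and was chosen after its values were seen.

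The mTORC1 pathway controls translation of TOP transcripts, and its genes were called in both directions. Of 20, 5 rose (25.0%), 8 fell (40.0%) and 7 did not pass (median -0.15), and the share that rose was that of all genes (25.3%, with 23.8% falling). The stress sensor SESN3 rose 2.77-fold (adjusted p = 1.25e-06) and DDIT4, an inhibitor of the pathway, rose 1.47-fold (adjusted p = 0.000225), whereas SESN2 fell 2.19-fold (adjusted p = 9.28e-06) and the kinase MTOR itself fell 1.897-fold (adjusted p = 0.000932), all in edgeR's test. Without soft replicate 1 or soft replicate 2, 3 genes rose. Translation was not measured in these libraries.

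2 motifs were searched in the same RefSeq windows on both strands, from 250 bases before to 50 bases after the annotated start. The E-box CACGTG was found in 2 of 28 host windows (7.14%), those of SNHG7 and SNHG30, against 7.26% of all windows. TGATGNAA, bound by ATF4 and its partners, was found in 0 of 28 against 3.62% of all windows. SNHG7 rose and SNHG30 did not pass (-0.07, adjusted p = 0.773, edgeR). No window of a host held both motifs, and a match describes the letters of the window alone.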

How the data were processed

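The authors deposited whole-number counts of fragments per gene symbol, summing to 30656278 to 40583044 per library. They also deposited TPM (counts per length assigned to each gene, scaled to a fixed total) in 1 table per library. Per the submitters' processing notes, hg38 was used with featureCounts 1.6.2, STAR 2.6.1e, cutadapt 1.9.1, Trim Galore 0.4.2 and FastQC 0.11.7. For the annotation, the strand setting and reads with several matches, nothing is given in the sources used here. The host genes and the gene lists were chosen with earlier results of these data known.

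Soft and stiff libraries (3 each) were compared with edgeR 4.0.16's quasi-likelihood test on the counts in R 4.3.3, with TMM factors, the default expression filter and no covariate, and p-values were adjusted with Benjamini-Hochberg over 18676 genes (threshold 0.05). The SE is the size of the log2 fold change over the square root of the F statistic. The test was checked on simulated data. No pair of libraries agreed within sampling noise. The 16 alternatives were DESeq2 1.42.0, other scalings and filters, limma 3.58.1 on log2 TPM, the replicate number as a block, and leaving out each library.

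By rule, values in each library are given for hosts that passed with a mean of 5 CPM or more and for GAS5, ZFAS1, EPB41L4A-AS1 and DANCR, and the genes named are up to 2 in each direction with the smallest p per list, coding genes starting on the opposite strand within 2000 bases of a host, and the most abundant gene of each marker list. SNHG5, SNHG18, SNHG22, the other hosts under the threshold, exon partners, LUM, DCN, KDR, MS4A1, PTPRC and the snoRNA entries were described after their values were seen. snoRNAs inside hosts and promoter windows (28 of 32 hosts matched) came from RefSeq, GRCh38.p14. Exon overlaps came from GENCODE 29, and partners covering at least 10% of exon bases are given.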

Additional observations from a re-analysis of the deposited data

How the results depend on the processing

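The median log2 fold change of the hosts lay between 0.07 and 0.27 over the 16 alternatives. EPB41L4A-AS1, SNHG6, SNHG7, SNHG10, SNHG16, SNHG18 and SNHG32 rose in each of the 16. SNHG12 rose in 15, SNHG26 in 14, SNHG1 in 13, SNHG19 in 12 and SNHG29 in 11, and SNHG22 fell in 11, and the cause of the lost calls was not tested. Calls gained were those of SNHG20 (7 alternatives), SNHG5 (3), and GAS5, SNHG3, SNHG11, SNHG15, SNHG17 and SNHG21 (1 each). The number of hosts that rose was 12 in most alternatives, 13 with the block and 8 without soft replicate 1. It was 9, 9 and 8 in limma on log2(TPM + 1), log2(TPM + 0.1) and, without a filter, log2(TPM + 1). On the TPM scale 40.9% of calls over all genes were rises, against 51.5% with TMM factors, and the median of all genes reached -0.11.

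The number of hosts that fell was 0 in DESeq2, 2 with library size alone, 2 without a filter, 2 in each limma setting, and 0 to 7 when single libraries were left out. Core snoRNP proteins that rose numbered 1 without a filter and 0 to 1 with libraries left out. Assembly factors that rose numbered 0 in limma with a filter at either pseudocount and 0 to 1 with libraries left out. Decay factors ran from 3 to 11 falls and 1 to 2 rises with libraries left out. mTORC1 pathway rises numbered 3 in each limma setting and 3 to 6 with libraries left out, and its falls 5 in limma on log2(TPM + 0.1). snoRNA entries inside hosts that fell numbered 1 in DESeq2, 1 with at least 10 counts in every library, 8, 7 and 6 in the limma settings in the order above, and 0 to 3 with libraries left out, where rises ran from 2 to 4. The cause of these shifts was not tested.

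Whether the replicate numbers pair the libraries cannot be settled here, as deviations from a mean of 3 libraries depend on each other. Deviations of same-numbered libraries correlated at 0.07, 0.22 and 0.05. Soft replicate 2 correlated best with stiff replicate 2. Soft replicates 1 and 3 correlated best with stiff replicates 3 and 1 (0.077 and 0.093). With the replicate number as a block, 13 hosts rose and 3 fell, and 2 core proteins rose.

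Genes that had not passed changed sign in places. In the limma settings, in the order above, SNHG8 stood at -0.049, -0.050 and -0.049 and GLRX5 at -0.036, -0.036 and -0.036. With single libraries left out, DANCR ran from -0.21 to 0.086, SNHG8 from -0.17 to 0.22, SNHG4 from -0.34 to 0.15, SNHG15 from -0.24 to 0.069, SNHG9 from -0.14 to 0.36, SNHG30 from -0.19 to 0.13, GLRX5 from -0.042 to 0.15, and ACAA2 from -0.093 to 0.46. Depth limits the hosts with few counts, such as SNHG18 and SNHG22 with 12 to 58 per library.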
